A study of Mus musculus with 3 samples.

Results

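The 9 genes described here, *Foxd1*, *Tcf21*, *Tbx18*, *Zeb2*, *Ebf1*, *Ebf3*, *Alx1*, *Hic1* and *Tshz3*, encode transcription factors of the kidney stroma. They were taken by symbol from the 32285 genes of the count matrices, and all 9 had unique molecular identifiers (UMIs, each a tagged transcript) in each of the 3 libraries. Kidneys of mouse embryos were dissociated at E15.5 and profiled by droplet single-cell RNA sequencing, which counted transcripts by their 3′ ends. Enl-WT embryos (Enl+/+ Wt1 GFPCre/+) and Enl-T1 embryos (Enl flox-T1/+ Wt1 GFPCre/+) were untreated, and a further library came from Enl-T1 embryos whose mothers had received TDI-11055 by mouth at 100 mg/kg once daily between E10.5 and E14.5 (Enl-T1 TDI-11055, the treated library in what follows). T1 is a short in-frame insertion in ENL, a reader of acetylated histones that is encoded by *Mllt1* and mutated in Wilms tumors, and TDI-11055 blocks the pocket with which ENL binds acetyl-lysine. Every group carried the Wt1 GFPCre knock-in, which inactivates 1 allele of *Wt1* and drives Cre where *Wt1* is active, in precursors of both nephron and stroma, so Enl-WT here is not a kidney with 2 working copies of *Wt1*. Embryos were pooled, and each group was 1 library.

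Because each group was 1 library, no test between groups was possible, and there was no replicate check on any difference. Levels are given as CPM, the UMIs of a gene summed over the cells of a class relative to all UMIs of that class, on the usual scale of CPM. Intervals are exact 95% intervals (Poisson for levels, conditional binomial for ratios, Clopper-Pearson for shares of cells), and they cover counting error only, not differences between embryos or preparations. A sum over cells cannot tell fewer expressing cells from less RNA per cell.

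The stroma of the embryonic kidney is the mesenchyme that lies between and around the nephrons and the branching ureteric epithelium, and it gives rise to interstitial fibroblasts, mesangial cells, pericytes and renin cells. *Foxd1*, a forkhead factor, marks the stromal progenitors that surround the cap of nephron progenitors, whereas *Tbx18*, a T-box factor, marks the mesenchyme that forms the smooth muscle coat of the ureter. The other factors are known from several mesenchymal tissues: *Tcf21* is a basic helix-loop-helix factor of interstitium and podocytes, *Zeb2* a zinc-finger repressor that binds E-boxes, *Ebf1* and *Ebf3* are paralogs of the early B-cell factor family, *Alx1* a paired-type homeodomain factor of craniofacial mesenchyme, *Hic1* a zinc-finger repressor of mesenchymal progenitors and *Tshz3* a teashirt zinc-finger factor of ureteric smooth muscle.

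To show genes of 3 of the 4 zone patterns described next, the 250 bases before the transcription start are given for *Foxd1* and *Hic1* (nephrogenic zone), *Zeb2* (medulla and the Vegfd/Clca3a1 cluster) and *Tbx18* (the zone led by *Actg2* and *Car3*). RefSeq promoter windows of build GRCm38.p6 matched 8 of the 9 genes, in 13 windows, and *Alx1* had no entry. Each window was searched on both strands for CACCTG (the E-box of the Zeb type), AGGTGTGA (a T-box site), GTAAACA (a forkhead site), TATAAA (the box of the core promoter) and CANNTG (any E-box, which includes CACCTG). It was also searched for an EBF site (TCCC and, after any 2 bases, its reverse complement) and a paired homeodomain site (TAAT and, after any 3 bases, its reverse complement), and capitals mark the matches. Of all 32851 windows of that length, 17.2% held CACCTG, 1.12% AGGTGTGA, 3.17% GTAAACA, 12.4% TATAAA, 66.2% CANNTG, 0.779% the EBF site and 0.463% the paired homeodomain site.

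Foxd1 (chr13:98353995-98354244, plus strand): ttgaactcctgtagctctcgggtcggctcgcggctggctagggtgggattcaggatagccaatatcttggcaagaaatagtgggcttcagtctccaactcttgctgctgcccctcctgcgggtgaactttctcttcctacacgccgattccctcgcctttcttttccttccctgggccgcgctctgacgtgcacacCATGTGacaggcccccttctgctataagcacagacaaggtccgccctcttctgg
Hic1 (chr11:75168153-75168402, minus strand): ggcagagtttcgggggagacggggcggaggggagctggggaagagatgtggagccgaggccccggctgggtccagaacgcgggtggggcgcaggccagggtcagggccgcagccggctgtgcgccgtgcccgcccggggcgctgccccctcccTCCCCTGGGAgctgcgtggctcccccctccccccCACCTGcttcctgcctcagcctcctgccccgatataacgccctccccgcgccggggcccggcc
Zeb2 (chr2:45117443-45117692, minus strand): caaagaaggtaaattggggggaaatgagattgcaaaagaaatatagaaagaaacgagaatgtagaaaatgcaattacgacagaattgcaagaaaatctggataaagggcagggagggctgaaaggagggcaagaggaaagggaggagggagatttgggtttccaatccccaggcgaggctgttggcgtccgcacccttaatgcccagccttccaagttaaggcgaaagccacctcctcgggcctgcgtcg
Tbx18 (chr9:87731261-87731510, minus strand): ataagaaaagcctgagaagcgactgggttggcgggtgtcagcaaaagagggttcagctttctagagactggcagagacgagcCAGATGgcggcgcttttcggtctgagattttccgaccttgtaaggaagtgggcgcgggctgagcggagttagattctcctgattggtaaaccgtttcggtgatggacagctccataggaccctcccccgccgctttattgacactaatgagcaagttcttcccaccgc

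RefSeq gave 2 windows for *Hic1* and 4 for *Zeb2*. The *Hic1* window shown held an EBF site 97 bases and a CACCTG match 63 bases before the start, and it lies inside the annotated gene but in no exon. The other *Hic1* window, upstream of the annotated gene, held none of the 7 motifs. The *Foxd1* window held 1 CANNTG, 54 bases before the start, and its last 3 bases are in the first annotated exon. The *Tbx18* window held 1 CANNTG, 168 bases before the start, and the *Zeb2* window shown and the other 3 held none of the 7 motifs. GC content was 57.2% for *Foxd1*, 77.2% for *Hic1*, 49.6% for *Zeb2* and 54.0% for *Tbx18*, against a median of 52.4% over all windows (quartiles 45.2% and 61.2%). A match describes the letters of a window and is no evidence of binding. In the GRCm38 annotation *Foxd1* lies on chromosome 13 (98354242 to 98359305, plus strand), *Hic1* on chromosome 11 (75164565 to 75169519, minus strand), *Zeb2* on chromosome 2 (44983632 to 45117395, minus strand) and *Tbx18* on chromosome 9 (87702800 to 87731260, minus strand). *Tcf21* lies on chromosome 10 (22817281 to 22820174, minus strand), as does *Alx1* (102998707 to 103030215, minus strand), *Ebf1* on chromosome 11 (44617317 to 45008091, plus strand), and *Ebf3* and *Tshz3* on chromosome 7 (137193673 to 137314445, minus strand, and 36698118 to 36773553, plus strand).

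The filter of 1000 to 6000 genes and at most 10% mitochondrial UMIs kept 5233 cells of Enl-WT, 4144 of Enl-T1 and 2754 of the treated library. These were 72.8%, 63.0% and 42.7% of the barcodes. The upper limit of 6000 genes alone removed 55, 309 and 577 cells that passed the other limits, so it cut most into the treated library. The libraries stood apart in ways other than genotype and treatment: the median UMI count per kept cell ran from 5090 in Enl-WT to 9391 in Enl-T1 and 16932 in the treated library, ribosomal protein genes took a median of 16.5%, 26.8% and 27.9% of UMIs, and cells with *Xist* but no Y-linked UMI made up 26.5%, 73.3% and 35.1%. Pairs of libraries shared 5 to 8 kept barcodes. Stroma, recognised by collagen and other matrix genes, held 869 cells in Enl-WT (16.6% of kept cells), 1395 (33.7%) in untreated Enl-T1 and 272 (9.88%) in the treated library. In the stroma the 10 markers of ureteric epithelium summed to 138 to 256 CPM, the 6 of endothelium to 53.4 to 77.2 CPM, the 6 of nephron progenitors to 61.3 to 68.5 CPM and the 6 immune markers to 1.15 to 4.17 CPM, with *Tyrobp* and *Cd52* at 0 in Enl-WT and in the treated library. The 5 erythroid markers summed to 1277, 1458 and 2197 CPM and the 5 proliferation markers to 1821, 933 and 740 CPM in Enl-WT, untreated Enl-T1 and treated Enl-T1 (the order in which 3 values are given throughout), and the part of these differences in the results was not tested. *Mllt1* was at 27 (22.2 to 32.5) CPM in Enl-WT stroma, 14.6 (12.4 to 17.0) in Enl-T1 and 16.9 (12.9 to 21.8) in the treated library, a 3′ count that cannot tell the T1 allele from the normal one. *Wt1*, which sets where Cre is made, was at 38.0, 14.4 and 18.9 CPM in the stroma and at 222, 108 and 75.5 CPM in the nephron.

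First, the zones in which each factor was expressed were determined. The stroma was clustered without the 9 genes among the clustering genes, and zones were named from other markers. The 5 zones were nephrogenic-zone stroma-like cells (led by *Ntn1*, *Aldh1a2* and *Dlk1*), a cluster with *Vegfd* and *Clca3a1* among its leading genes, medullary stroma-like cells (*Penk*, *Lef1*, *Wnt4*), a cluster led by *Syt1*, *Car3* and *Actg2*, and renin/mesangial-like cells (*Ren1*, *Akr1b7*). Although they took no part in the clustering, *Foxd1*, *Alx1* and *Tbx18* were each among the 10 leading genes of a cluster, so the zone levels below describe the clusters and do not test them. The genes fell into 4 patterns by the zone of their highest level, and that zone was the same in all 3 libraries for 8 of the 9, the exception being *Zeb2* (plot of levels by zone).

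**Figure D1:**
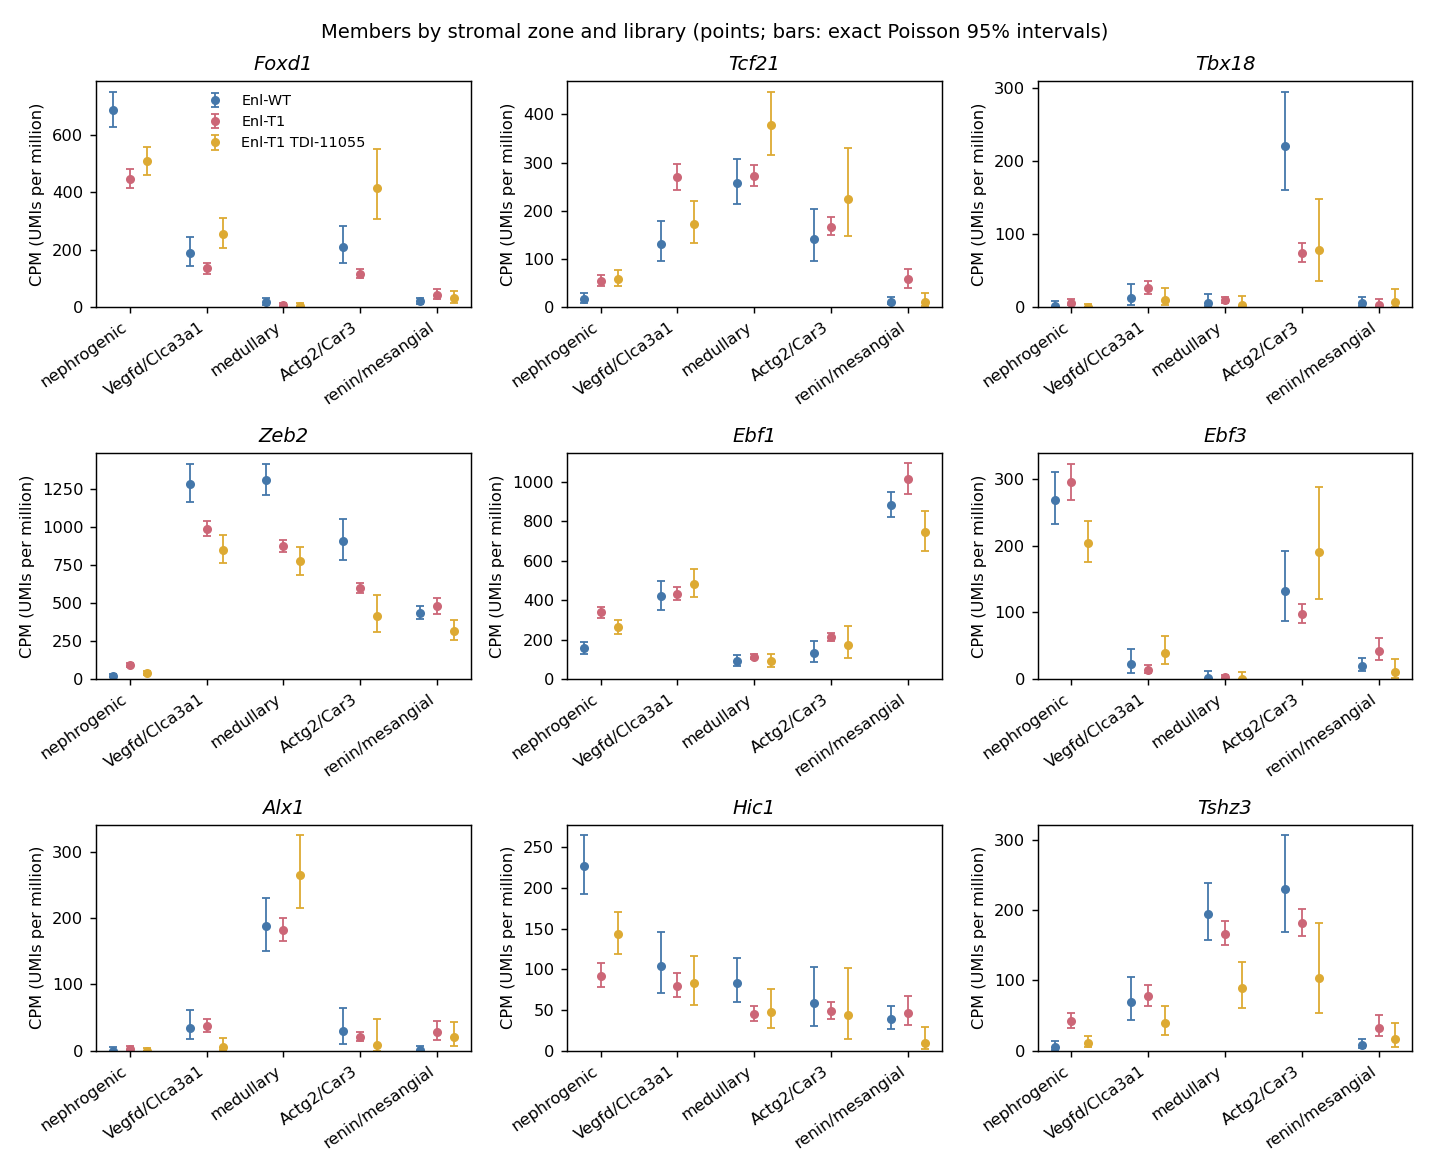
Levels of the 9 transcription factors (CPM, linear axis from 0) in the 5 stromal zones of the 3 libraries, with exact Poisson 95% intervals as error bars. *Foxd1*, *Ebf3* and *Hic1* are highest in the nephrogenic zone, *Alx1*, *Tcf21* and *Zeb2* in the medulla or the Vegfd/Clca3a1 cluster, *Tbx18* and *Tshz3* in the Actg2/Car3 cluster and *Ebf1* in renin/mesangial-like cells.

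*Foxd1*, *Ebf3* and *Hic1* were highest in the nephrogenic zone. *Foxd1* was at 685 (625 to 749) CPM there in Enl-WT, at 446 (413 to 480) in Enl-T1 and at 507 (460 to 557) in the treated library. In the medulla the same gene was at 16.7, 9.11 and 2.8 CPM, and in Enl-WT the nephrogenic level was 41.0-fold (20.6 to 95.5) the medullary one. The zone of second-highest *Foxd1* differed between libraries, the Actg2/Car3 cluster in Enl-WT (210 CPM) and in the treated library (416 CPM) and the Vegfd/Clca3a1 cluster in Enl-T1 (135 CPM). In the treated library the nephrogenic zone and the Actg2/Car3 cluster did not separate beyond counting error (ratio 1.22, 0.904 to 1.68). *Ebf3* had the same 2 zones: 269 (232 to 310), 295 (269 to 323) and 205 (175 to 237) CPM in the nephrogenic zone and 132, 97.8 and 190 CPM in the Actg2/Car3 cluster, and in the medulla it had 1, 6 and 0 UMIs in the 3 libraries. *Hic1* was more evenly spread. It was at 226 (193 to 264) CPM in the nephrogenic zone of Enl-WT and at 104, 83.6, 58.7 and 39.2 CPM in the Vegfd/Clca3a1, medullary, Actg2/Car3 and renin/mesangial zones. In Enl-T1 its nephrogenic and Vegfd/Clca3a1 levels (92.1 and 79.9 CPM) no longer separated (ratio 1.15, 0.897 to 1.49).

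*Alx1* was found mainly in the medulla. It was at 188 (151 to 231) CPM there in Enl-WT, at 182 (165 to 201) in Enl-T1 and at 266 (215 to 325) in the treated library, and the nephrogenic zone held 0, 4 and 0 of its UMIs. In Enl-WT the medullary level was at least 35.3-fold higher than the nephrogenic one, the lower limit of the exact interval. *Tcf21* shared the medulla as its highest zone, with 257 (214 to 307), 273 (252 to 295) and 378 (317 to 447) CPM, but was also found elsewhere: the Vegfd/Clca3a1 cluster had 132, 270 and 173 CPM and the Actg2/Car3 cluster 142, 167 and 225 CPM. In Enl-T1 the medullary and Vegfd/Clca3a1 levels of *Tcf21* did not separate (ratio 1.01, 0.890 to 1.15). *Zeb2* was at 1312 (1211 to 1419) CPM in the medulla and 1286 (1165 to 1417) in the Vegfd/Clca3a1 cluster of Enl-WT, levels that did not separate (ratio 1.02, 0.899 to 1.16), and the Vegfd/Clca3a1 cluster came first in Enl-T1 (990 against 873 CPM) and, not beyond counting error, in the treated library (850 against 775 CPM). The nephrogenic zone, at 19.8 CPM in Enl-WT, was the lowest for *Zeb2* and the highest for *Foxd1*.

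*Tbx18* was concentrated in the Actg2/Car3 cluster, whose leading genes include the smooth muscle actin *Actg2*. It was at 220 (161 to 295) CPM there in Enl-WT, 74.3 (62.4 to 87.7) in Enl-T1 and 77.9 (35.6 to 148) in the treated library, and the next zone in Enl-WT, the Vegfd/Clca3a1 cluster, was at 12.5 CPM (ratio 17.6, 6.40 to 67.2). The nephrogenic zone of Enl-WT held 1 *Tbx18* UMI. *Tshz3* had its highest level in the same cluster, 230 (169 to 306), 181 (162 to 202) and 104 (53.7 to 181) CPM, and a medullary level that did not separate from it in any library (194, 166 and 89.5 CPM). *Ebf1* alone was highest in the renin/mesangial-like cells, at 882 (821 to 947), 1016 (939 to 1097) and 747 (652 to 852) CPM. The Vegfd/Clca3a1 cluster followed at 420, 432 and 483 CPM, and the medulla was lowest at 91.9, 113 and 89.5 CPM.

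The genes whose levels most resembled each factor were then listed over 44 points, each a cell class of at least 30 cells in 1 library, which share libraries and depth, so that the correlations are descriptions. Pearson's r of log2(CPM + 10) was 0.91 for *Foxd1* with *Loxl1*, 0.88 for *Tcf21* with *Frem1*, 0.90 for *Tbx18* with *Syt1* and 0.90 for *Zeb2* with *Mylk*. It was 0.94 for *Ebf1* with *Adam19*, 0.89 for *Ebf3* with *Arsj*, 0.96 for *Alx1* with *Lrriq1*, 0.95 for *Hic1* with *Olfml3* and 0.93 for *Tshz3* with *Zfp536*. The next nearest genes included *Adcy2* and *Boc* for *Foxd1*, *Lum* and *Car3* for *Tbx18*, *Dlk1* for *Ebf3* and *Cldn11* for *Tshz3*. Between the 9 factors r was highest for *Hic1* with *Ebf1* (0.88), *Foxd1* with *Ebf3* (0.83) and *Tshz3* with *Zeb2* (0.82) and lowest for *Alx1* with *Ebf3* (0.14) and with *Foxd1* (0.23).

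Next, cells with a UMI of a factor were counted, each cell having first been thinned to 2000 UMIs, which gives the counted cells the same depth. Thinning does not bring back the cells that the upper limit on genes removed. Of the stromal cells 93.4% in Enl-WT (791 of 847), 93.1% in Enl-T1 (1296 of 1392) and 83.0% in the treated library (225 of 271) had a UMI of at least 1 of the 9 genes, against 20.4%, 20.4% and 12.5% of nephron cells and 2.68%, 3.51% and 1.58% of ureteric epithelial cells, a lineage that should lack them. The thinning left out 22, 3 and 1 shallower stromal cells. A *Foxd1* UMI was found in 31.2% (28.1 to 34.4), 19.9% (17.8 to 22.1) and 33.9% (28.3 to 39.9) of stromal cells, and without thinning in 42.5%, 39.9% and 62.9% (median UMIs of 4037, 6915 and 13284 per stromal cell). A *Tshz3* UMI was found in 12.0%, 19.0% and 3.69%, a *Zeb2* UMI in 51.6%, 61.1% and 27.3% and a *Tcf21* UMI in 14.3%, 28.1% and 20.3%. In the ureteric epithelium, with median depths of 5226, 11718 and 19318 UMIs, no library had a UMI of these 4 genes in more than 1.11% of thinned cells.

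*Foxd1* and *Tbx18* mark stromal progenitors of different position, and cells with a UMI of both were counted. Of the 30 thinned Enl-WT stromal cells with *Tbx18*, 8 also had *Foxd1* (26.7%, 12.3 to 45.9), against 31.3% (28.2 to 34.6) of the stromal cells without *Tbx18*. In Enl-T1 it was 12 of 69 cells (17.4%, 9.32 to 28.4) against 20%, and in the treated library 3 of 5. Within the Actg2/Car3 cluster of Enl-WT 5 of 15 *Tbx18* cells had *Foxd1* (33.3%, 11.8 to 61.6) and of Enl-T1 4 of 34 (11.8%, 3.30 to 27.5). A difference between cells with and without *Tbx18* was not detectable at this depth.

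Then the 3 groups were compared over the whole stroma. The make-up of the stroma differed between libraries: the nephrogenic zone was 20.1%, 14.48% and 22.4% of stromal cells, the Actg2/Car3 cluster 5.75%, 18.1% and 5.15%, the medulla 15.7%, 25.2% and 11% and the renin/mesangial-like cells 18.8%, 5.02% and 6.25% in the 3 libraries (plot of shares). Whole-stroma levels combine these shares with the levels within zones, so the ratios were also computed with each cluster weighted as in Enl-WT, a choice made after the data had been seen.

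**Figure D2:**
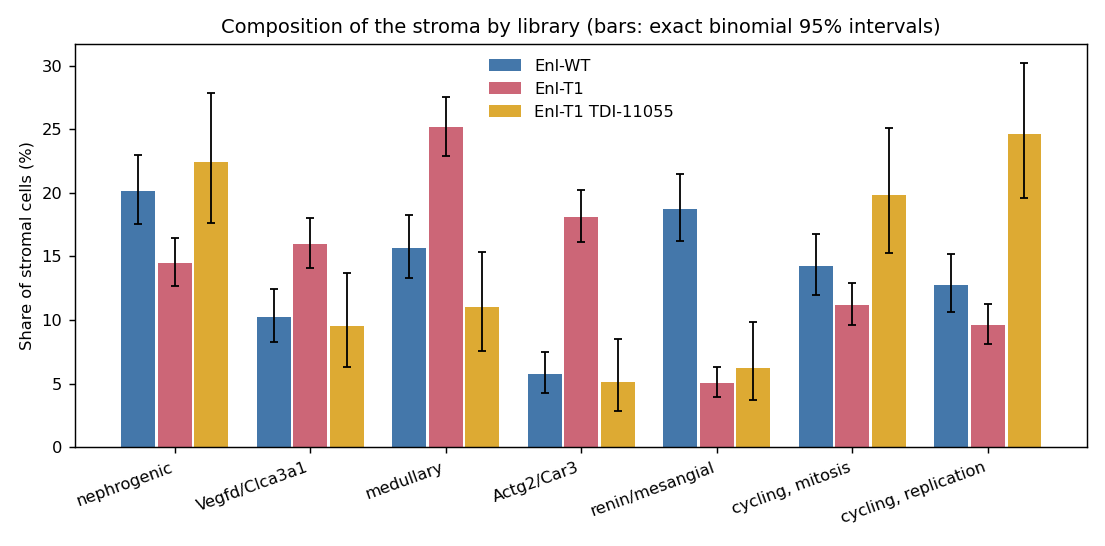
Shares of the stromal cells of each library (percent, with exact binomial 95% intervals) in 5 zones and 2 cycling clusters. The Actg2/Car3 cluster holds 18.1% of Enl-T1 stroma and under 6% of the other libraries, and the renin/mesangial-like cells hold 18.8% of Enl-WT stroma.

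Between Enl-T1 and Enl-WT, *Tcf21* and *Tshz3* were past 1.5-fold higher and *Foxd1* and *Hic1* past 1.5-fold lower in Enl-T1 stroma, 2 and 2 of the 9. Among the 10552 genes with at least 5 CPM, 6.87% were past 1.5-fold higher and 29.8% lower, so the share of lower factors, 2 of 9, was not above that of genes at large. The median gene had a log2 ratio of −0.31 on this CPM scale. *Tcf21* was at 85.5 (76.8 to 95) CPM in Enl-WT and, with a ratio of 2.06 (1.84 to 2.32), at 176 (169 to 184) CPM in Enl-T1, and 2.57% of genes had a higher ratio. *Tshz3* was at 58.6 (51.4 to 66.5) and 106 (100 to 112) CPM, a ratio of 1.81 (1.58 to 2.09), and 3.84% of genes had a higher one. Relative to the median gene, the log2 ratios were 1.35 for *Tcf21* and 1.17 for *Tshz3*. With the clusters weighted as in Enl-WT, *Tcf21* kept a log2 ratio of 0.64 on the CPM scale and *Tshz3* had 0.33, which is under the 1.5-fold limit.

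*Foxd1* was at 263 (248 to 279) CPM in Enl-WT stroma and 175 (167 to 183) in that of Enl-T1 (ratio 0.663, 0.615 to 0.715), and 70.9% of genes had a higher ratio. *Hic1* was at 111 (101 to 121) and 63.7 (59.1 to 68.6) CPM, a ratio of 0.575 (0.510 to 0.649), and 83.0% of genes had a higher one. Relative to the median gene the log2 ratios were −0.29 and −0.49, neither of them past 1.5-fold. Weighted as in Enl-WT the log2 ratios on the CPM scale were −0.51, which is within 1.5-fold, and −0.80. The other 5 factors lay within 1.5-fold: *Alx1* had a ratio of 1.44 (1.2 to 1.73), *Tbx18* 1.19 (0.936 to 1.53), *Zeb2* 1.03 (0.979 to 1.08), *Ebf3* 1.03 (0.916 to 1.17) and *Ebf1* 0.887 (0.833 to 0.944), the last of which lay above 1 relative to the median gene (1.10).

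Between the treated library and untreated Enl-T1, 2 of the 9 factors were past 1.5-fold higher under treatment and 4 lower, against 10.9% and 11.9% of 10222 genes, whose median log2 ratio was 0.03. The 2 higher ones were *Foxd1*, at 298 (280 to 316) CPM in the treated library (ratio 1.71, 1.58 to 1.84), and *Hic1*, at 98.2 (88.1 to 109) CPM (ratio 1.54, 1.35 to 1.76). The 4 lower ones were *Tbx18*, at 25.7 (22.8 to 28.9) CPM in Enl-T1 and 6.59 (4.18 to 9.88) in the treated library (ratio 0.256, 0.160 to 0.392), *Tshz3*, at 28.6 (23.3 to 34.8) CPM (ratio 0.270, 0.218 to 0.331), *Zeb2*, at 592 (577 to 606) and 304 (286 to 323) CPM (ratio 0.514, 0.481 to 0.549), and *Alx1*, at 54.0 (49.8 to 58.5) and 34.7 (28.8 to 41.4) CPM (ratio 0.642, 0.523 to 0.781). For *Tbx18* and *Tshz3* 99.3% and 99.2% of genes had a higher ratio. With the clusters weighted as in Enl-WT, *Tshz3* had a log2 ratio of −1.23 and *Tbx18* −0.85, *Zeb2* was within 1.5-fold at −0.52, while *Alx1* changed sign to 0.15 and *Foxd1* and *Hic1* were at 0.38 and 0.34, within 1.5-fold (plot of whole-stroma ratios). *Tcf21* (125 CPM, ratio 0.711), *Ebf1* (317 CPM, 1.04) and *Ebf3* (95.1 CPM, 1.02) lay within 1.5-fold.

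**Figure D3:**
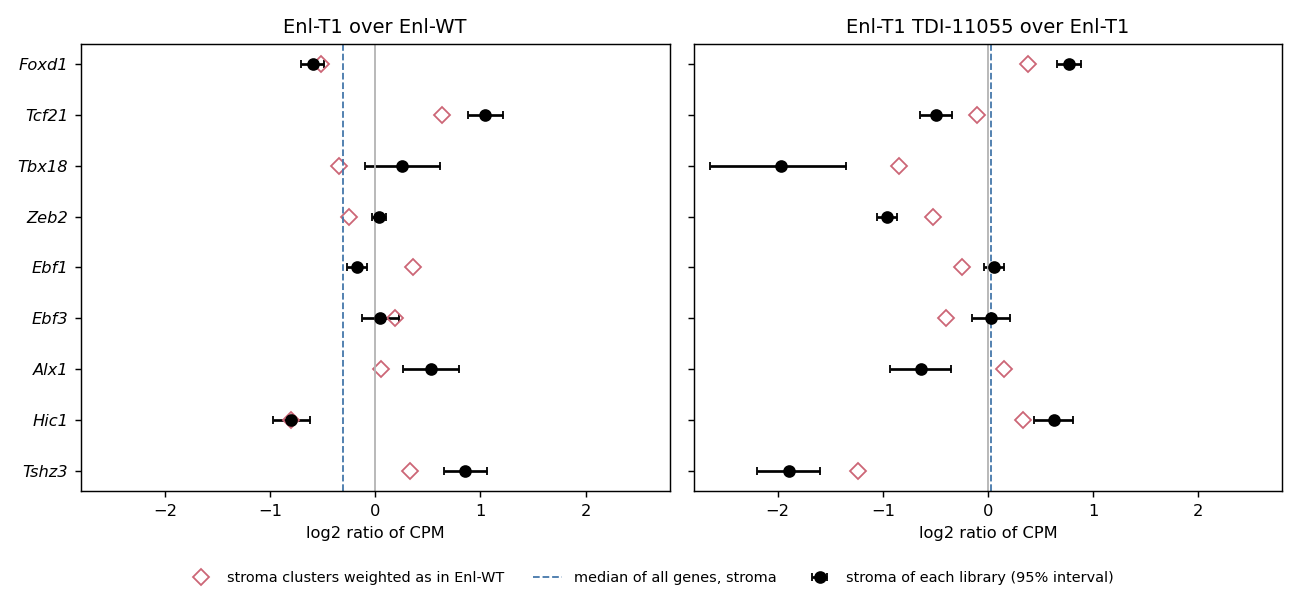
Log2 ratios of CPM in the whole stroma for the 9 factors, Enl-T1 over Enl-WT and treated over untreated Enl-T1, as points with exact 95% counting intervals; diamonds show the ratio with clusters weighted as in Enl-WT and the dashed line the median of all genes tested. *Tcf21* and *Tshz3* lie highest in the first comparison, and *Tbx18* and *Tshz3* lie lowest in the second.

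The treated library was also set against Enl-WT, which shares neither genotype nor treatment with it. None of the 9 factors was past 1.5-fold higher and 3 were lower, *Tbx18* (ratio 0.305), *Tshz3* (0.489) and *Zeb2* (0.528), against 8.55% and 34.1% of 10475 genes. These comparisons share libraries, so their values for a gene are not independent. Of the 48 other mesenchymal transcription factors on a hand-written list, 40 had at least 5 CPM in Enl-T1 and Enl-WT stroma, of which 5 were past 1.5-fold higher in Enl-T1 and 14 lower, with a median log2 ratio of −0.17 against 0.05 for the 9 factors. For treated over untreated Enl-T1, 4 of 41 were higher and 12 lower, with a median of −0.24 against −0.49.

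Single factors of that list and the paralogs of the 9 genes had ratios of several sizes. The highest in Enl-T1 over Enl-WT were *Sox9* (25 and 112 CPM, ratio 4.48, 3.66 to 5.53), a factor of chondrocytes and epithelial progenitors, *Osr1* (4.34) and *Osr2* (4.04), and the lowest *Mef2c* (0.346), *Heyl* (0.347) and *Foxc1* (0.474). *Osr1* (4.66 CPM in Enl-WT, 20.2 in Enl-T1) and *Osr2* (3.43 and 13.9) reached the minimum of 5 CPM through Enl-T1 alone. In treated over untreated Enl-T1 *Sox9* (0.248), *Osr1* (0.411) and *Klf4* (0.416) were lowest and *Foxd2* (3.79), *Twist1* (1.84) and *Heyl* (1.66) highest. *Foxd2* (2.72 CPM untreated, 10.3 treated) reached it through the treated library alone. Nothing is read from the rank of *Osr1* and *Osr2* in the first comparison or of *Foxd2* in the second. *Zeb1*, the paralog of *Zeb2*, was at 154 and 83.3 CPM in Enl-WT and Enl-T1 (ratio 0.541, 0.488 to 0.60) while *Zeb2* had a ratio of 1.03. *Tshz1* and *Tshz2* had ratios of 1.34 and 1.25 in Enl-T1 over Enl-WT and of 0.838 and 0.648 in treated over untreated Enl-T1, smaller in size than those of *Tshz3*. *Tbx2* had 0.512 and *Tbx3* 1.21 in the first comparison, *Ebf2* 0.730 and then 1.62, *Hic2* 0.549, and *Tcf12* and *Tcf4* 0.602 and 0.824. *Alx4* had 1 UMI in these 2 libraries, and *Ebf4* and *Foxd2* averaged under 5 CPM in the first comparison.

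Ratios were then taken within each zone, so that the sizes of the zones do not enter the sum (heat map of ratios within zones). Free RNA, doublets and cells placed in another cluster can still bring RNA of other zones into a class. How pure each zone was in each library, and the part of this in the ratios, was not tested. In the nephrogenic zone 4 of the 7 factors with at least 5 CPM were past 1.5-fold higher in Enl-T1 relative to Enl-WT and 2 lower, against 12.5% and 33.4% of 10292 genes. Of the 4 that were higher, *Zeb2*, *Tshz3* and *Tcf21* were under 20 CPM there in Enl-WT. *Zeb2* was at 19.8 (10.8 to 33.2) CPM in Enl-WT, 91.5 (77.3 to 108) in Enl-T1 and 38.4 (26.4 to 53.9) in the treated library, a ratio of 4.62 (2.67 to 8.66) for Enl-T1 over Enl-WT and of 0.419 (0.278 to 0.615) for treated over untreated. *Tshz3* was at 5.66 (4 UMIs), 42 (32.5 to 53.3) and 11.6 (5.57 to 21.4) CPM, ratios of 7.42 (2.77 to 28.0) and 0.277 (0.127 to 0.541). *Tcf21* was at 17.0 (8.78 to 29.7), 54.5 (43.7 to 67.3) and 58.1 (43.1 to 76.6) CPM, ratios of 3.21 (1.75 to 6.45) and 1.07. *Ebf1* was at 157 (129 to 189), 338 (310 to 368) and 263 (230 to 299) CPM, ratios of 2.15 (1.75 to 2.66) and 0.778. The treated level of *Tcf21* was thus no lower than the untreated one, while those of *Zeb2* and *Tshz3* lay between Enl-WT and Enl-T1.

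The 2 lower ones in that zone were *Foxd1*, with a ratio of 0.650 (0.579 to 0.732), and *Hic1*, with 0.407 (0.323 to 0.512). *Hic1* was at 226 (193 to 264), 92.1 (77.8 to 108) and 143 (119 to 171) CPM, and its ratio for treated over untreated was 1.55 (1.21 to 1.99), where 15.3% of 9980 genes were past 1.5-fold higher and 15.4% lower. *Foxd1* had 1.14 (1.01 to 1.28) for treated over untreated there, against 1.71 over the whole stroma. *Ebf3*, the other factor of this zone, stayed within 1.5-fold (1.10 and 0.693). The zone is made of a cluster led by *Ntn1* and a cluster led by *Npy* and *Dlk1*, with 140 and 35 cells in Enl-WT, 107 and 95 in Enl-T1 and 42 and 19 in the treated library. The directions of *Hic1* and *Zeb2* were the same in both: *Hic1* was at 220, 92.2 and 153 CPM in the first and 259, 91.9 and 110 CPM in the second, and *Zeb2* at 17.0, 96.4 and 42.5 CPM and at 33.5, 84.0 and 24.9 CPM. *Foxd1* was at 678, 517 and 555 CPM in the first, a smaller difference than its 720, 336 and 348 CPM in the second.

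**Figure D4:**
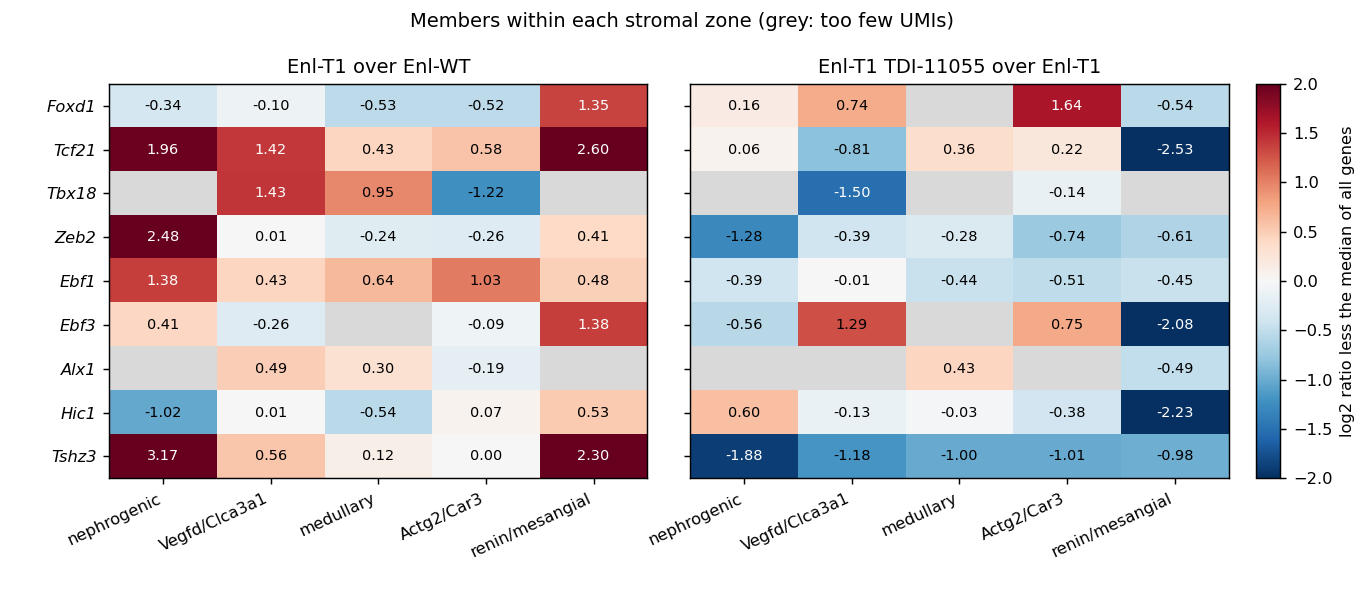
Log2 ratio of each factor within each stromal zone less the median log2 ratio of all genes in that zone, for Enl-T1 over Enl-WT and treated over untreated Enl-T1 (color scale in log2 units; grey marks fewer than 3 UMIs in either library or 20 in both). *Zeb2*, *Tshz3* and *Tcf21* have high ratios in the nephrogenic zone for Enl-T1 over Enl-WT, and *Tshz3* has low ratios in every zone for treated over untreated Enl-T1.

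The medulla showed other ratios. *Alx1* and *Tcf21*, its main factors, had ratios of 0.970 (0.771 to 1.23) and 1.06 (0.875 to 1.3) for Enl-T1 over Enl-WT, so the higher whole-stroma *Tcf21* of Enl-T1 was not seen within medullary cells. In treated over untreated Enl-T1 they had 1.46 (1.15 to 1.83) and 1.38 (1.14 to 1.67), from 30 treated cells. *Zeb2* was lower in Enl-T1 relative to Enl-WT within the medulla (ratio 0.666, 0.608 to 0.729) and within the Actg2/Car3 cluster (0.657, 0.562 to 0.772), against 36.2% of 10330 and 39% of 10495 genes, and opposite in direction to the nephrogenic zone, while its whole-stroma ratio was 1.03. Relative to the median gene of each zone (log2 −0.35 and −0.34) these 2 ratios of *Zeb2* were within 1.5-fold. *Hic1* was at 83.6, 45.1 and 47.6 CPM in the medulla, a ratio of 0.540 (0.372 to 0.799) for Enl-T1 over Enl-WT.

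In the Actg2/Car3 cluster *Tbx18* was lower in Enl-T1 relative to Enl-WT (ratio 0.337, 0.239 to 0.483), although that cluster held 253 cells in Enl-T1 and 50 in Enl-WT. The whole-stroma level of *Tbx18*, 21.6 (17.3 to 26.6) CPM in Enl-WT and 25.7 in Enl-T1, differed by less than 1.5-fold. Within the cluster treated and untreated Enl-T1 did not differ in *Tbx18* beyond counting error (ratio 1.05, 0.470 to 2.05), whereas its whole-stroma ratio was 0.256. The cluster held 14 treated cells. *Foxd1* in the same cluster was at 210 (152 to 284), 115 (101 to 132) and 416 (306 to 551) CPM, ratios of 0.548 (0.394 to 0.780) and 3.60 (2.58 to 4.94), the latter against 30.5% of 10265 genes past 1.5-fold higher.

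*Tshz3* was lower in treated than in untreated Enl-T1 within each of the 5 zones, with ratios of 0.277 in the nephrogenic zone, 0.498 in the Vegfd/Clca3a1 cluster, 0.538 in the medulla, 0.573 in the Actg2/Car3 cluster and 0.511 in the renin/mesangial-like cells. In the same order 15.4%, 14.7%, 13.7%, 21.6% and 23.5% of all genes were past 1.5-fold lower. The intervals of the last 2 ran up to 1.01 and 1.39. The 17 treated renin/mesangial-like cells held 5 of its UMIs. In that class *Ebf1* had ratios of 1.15 (1.04 to 1.28) for Enl-T1 over Enl-WT and 0.736 (0.629 to 0.858) for treated over untreated, and 5 factors were past 1.5-fold higher in Enl-T1, where 13.1% of 10127 genes were. *Alx1* reached the minimum of 5 CPM through Enl-T1 alone, so no share is read from this count. The 5 were *Tcf21*, at 11.5 and 57.7 CPM (ratio 5.00, 2.44 to 11.3), *Tshz3*, at 8.07 and 32.8 CPM (4.06, 1.66 to 11.3) and *Alx1*, with 1 UMI in Enl-WT and 18 in Enl-T1 (24.3, 3.84 to 1014), besides *Foxd1* (2.10, 1.12 to 4.04) and *Ebf3* (2.15, 1.13 to 4.2). All 5 were low there in Enl-WT, at no more than 20.8 CPM. This class had 163 cells in Enl-WT and 70 in Enl-T1.

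Finally, the factors were followed outside the stroma. Free RNA from lysed stromal cells gives UMIs in every droplet, so 8 matrix genes (*Col1a1*, *Col1a2*, *Col3a1*, *Dcn*, *Postn*, *Lum*, *Col6a3* and *Pdgfra*) served as the background, and each level was expressed as a percent of that gene's own level in the stroma of the same library. A factor counted as above background when the whole interval of its percent lay above the highest matrix gene. In the ureteric epithelium none of the 9 factors did so in any library. The limit there was set by *Postn*, at 12.95%, 32.8% and 14.4%, while the other 7 matrix genes reached at most 1.26%, 1.56% and 1.13%. Against those 7, a choice made after the values were seen, *Ebf1* lay above in Enl-WT (1.67%, 1.28 to 2.14) and Enl-T1 (2.63%, 2.18 to 3.15) and *Tshz3* in the treated library (3.31%, 1.89 to 5.51). The 9 factors ranged from 0.477% to 1.99% in Enl-WT, 0.837% to 2.63% in Enl-T1 and 0.161% to 3.31% in the treated library. In the whole nephron 2 factors lay above the highest matrix gene in Enl-WT (*Foxd1* and *Tcf21*), where *Col1a2* set the limit at 14.4%. In Enl-T1 4 factors did so (*Tcf21*, *Zeb2*, *Ebf3* and *Tshz3*), with a limit of 2.796%. In the treated library it was 3 (*Tcf21*, *Zeb2* and *Tshz3*), with a limit of 4.33%. Because the limits differ, these counts cannot be compared between libraries. In nephron progenitor-like cells the limits were 1.78%, 2.14% and 6.83%, and 4, 4 and 2 factors lay above them. The share of all genes that pass this rule was not computed. These counts and those of other classes below therefore say nothing about the factors relative to genes at large. The matrix genes themselves differed between the groups in the stroma: *Dcn* and *Lum* were 2.71- and 2.31-fold higher in Enl-T1 relative to Enl-WT, and 6 of the 8 were past 1.5-fold lower in treated than in untreated Enl-T1.

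*Foxd1* in nephron progenitor-like cells was at 43.6 (37.4 to 50.5) CPM in Enl-WT (178 UMIs, 709 cells), 2.87 (1.80 to 4.34) in Enl-T1 (22 UMIs, 595 cells) and 7.42 (5.86 to 9.27) in the treated library (77 UMIs, 594 cells). The ratio of Enl-T1 to Enl-WT was 0.0658 (0.0402 to 0.103), against 0.663 in the stroma, and the ratio of treated to untreated was 2.59 (1.59 to 4.37). This class joins a cluster led by *Rspo3* and *Cited1*, with 334, 159 and 198 cells, to cycling clusters led by *Rrm2*, *Ube2c* and *Ccnb2*. The cycling clusters had no progenitor marker among their 10 leading genes. Their share differs between the libraries, and its part in the ratios was not tested. In this class 32.1% of 9910 genes were past 1.5-fold lower in Enl-T1 relative to Enl-WT and 6.17% higher, and 6.37% of 9637 were higher and 8.38% lower in treated than in untreated Enl-T1. Relative to the stroma *Foxd1* was at 16.6% (14.1 to 19.4) in Enl-WT, where the matrix genes reached 0.371% to 1.78%, at 1.64% in Enl-T1, inside their 0.420% to 2.14%, and at 2.49% in the treated library, inside their 0.338% to 6.83%. The median of the matrix genes was 0.788%, 1.05% and 0.501%, so *Foxd1* lay above the median matrix gene in each library. After thinning, 72 of 703 Enl-WT progenitor-like cells (10.2%, 8.10 to 12.7) had a *Foxd1* UMI, 2 of 594 in Enl-T1 (0.337%) and 9 of 593 in the treated library (1.52%), against 0.467%, 0.342% and 0.0990% of ureteric cells. Without thinning the shares were 17.6%, 2.52% and 7.58%. With doublets marked and removed and the cells clustered again, the levels were 41.0, 2.29 and 6.51 CPM.

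*Tcf21*, *Zeb2*, *Tshz3* and *Ebf3* followed other orders in the progenitor-like cells. *Tcf21* was at 18.6 (14.7 to 23.3), 26.6 (23.1 to 30.5) and 51.4 (47.1 to 55.9) CPM, highest in the treated library (ratio to untreated 1.93, 1.64 to 2.28), and above the highest matrix gene in all 3. *Zeb2* was at 40.9, 47.2 and 18.8 CPM, a ratio of 0.398 (0.333 to 0.475) for treated over untreated, and it lay above the matrix genes in the untreated libraries. *Tshz3* was at 3.92 (2.24 to 6.36), 14.1 (11.5 to 17.0) and 5.97 (4.58 to 7.66) CPM, ratios of 3.59 (2.11 to 6.51) and 0.424 (0.305 to 0.585), the same directions as in the stroma. *Ebf3* had 4, 59 and 21 UMIs, a ratio of 7.85 (2.91 to 29.8) for Enl-T1 over Enl-WT at a mean level under 5 CPM. *Tbx18*, *Alx1* and *Hic1* had at most 16 UMIs in this class in any library, and none of them exceeded the matrix genes. The 6 markers of nephron progenitors summed to 1094, 426 and 874 CPM in these cells, so the class was not equally marked in the 3 libraries.

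In podocyte-like cells of Enl-WT *Tcf21* was at 339 (312 to 368) CPM, *Zeb2* at 266 (242 to 292) and *Foxd1* at 188 (168 to 210), which is 397%, 46.2% and 71.6% of their stromal levels. In the 30 podocyte-like cells of the treated library *Tcf21* was at 318 (269 to 374), *Zeb2* at 128 and *Foxd1* at 13.0 CPM. The 39 cells of this class in Enl-T1 had 34.8, 209 and 3.48 CPM, but their 7 podocyte markers summed to 188 CPM against 10057 in Enl-WT and 3015 in the treated library, with *Podxl* at 0, so they are not podocytes by these markers, and no ratio was taken. *Tcf21* and *Zeb2* are known podocyte genes. Of the matrix genes *Col1a2*, a leading gene of this class, was at 108% of its stromal level in the Enl-WT podocyte-like cells, and the other 7 were at no more than 2.87%. By the rule above *Tcf21* alone passed in this class of Enl-WT and of the treated library, and *Zeb2* and *Foxd1* did not.

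In the endothelium the same 5 factors, *Zeb2*, *Ebf1*, *Ebf3*, *Hic1* and *Tshz3*, lay above the highest matrix gene in each library. *Ebf1* was at 169 (155 to 185), 244 (227 to 262) and 173 (155 to 194) CPM, which is 49.3%, 80.0% and 54.7% of its stromal level. *Zeb2* was at 88.7, 67.6 and 43.1 CPM, *Ebf3* at 27, 28.3 and 16.2, *Hic1* at 17.0, 13.5 and 14.54 and *Tshz3* at 13.9, 14.8 and 8.39. None of the 5 was past 1.5-fold between Enl-T1 and Enl-WT there, where 5.93% of 10031 genes were higher and 29.4% lower, and in treated over untreated Enl-T1 *Zeb2* (0.637, 0.484 to 0.830), *Ebf3* (0.573, 0.363 to 0.879) and *Tshz3* (0.567, 0.295 to 1.03) were past 1.5-fold lower, against 18% of 9630 genes. *Foxd1*, *Tcf21*, *Tbx18* and *Alx1* were at no more than 6.58 CPM in endothelial cells of any library.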

How the data were processed

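Single-cell libraries were prepared by the authors from pooled embryonic day 15.5 mouse kidneys (3′ chemistry, 10x Genomics), 1 library for each group (Enl-WT, untreated Enl-T1 and Enl-T1 TDI-11055). The deposited matrices held raw UMI counts of 32285 genes, which the submitters' processing notes credit to Cell Ranger 6.1.2 and build mm10. The 9 factors and the gene lists were chosen with earlier results of these data known, and so were the classes to be compared.

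Barcodes with 1000 to 6000 genes and at most 10% mitochondrial UMIs were kept, the limits of the study's methods. Libraries were integrated with anchors and clustered in Seurat 5.3.0 under R 4.3.3, using at most 2000 variable genes and 30 principal components at resolution 0.5 for all cells and 20 at resolution 0.8 within stroma and within nephron. The 9 factors and technical genes (sex-linked, haemoglobin, ribosomal protein and mitochondrial) took no part in the clustering. Classes were named "-like" from marker lists without the 9 factors and were rebuilt here, so that values may differ from the study because of the naming. A name needed at least 3 markers detected in 10% of the cells and, within stroma, also a marker among the 10 leading genes. No other lineage could have more markers among these 10 genes than the cluster's own lineage. The Vegfd/Clca3a1 and Actg2/Car3 clusters kept the names of leading genes. Doublets were left in. Scrublet (scanpy 1.11.5) marked 123, 41 and 2 kept barcodes, and as the last number is under 0.5% the 142 highest scores were removed in that library in the alternative.

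UMIs were summed per class and library and scaled to CPM, and ratios were called past 1.5-fold among genes with at least 5 CPM on average. The unit is a UMI count and the depth of each class is its total of UMIs. For shares of cells each cell was thinned to 2000 UMIs. The scripts were tested on simulated counts. The genes named are the 9 factors in every comparison, the 3 highest and 3 lowest of 48 other mesenchymal factors by ratio, the paralogs, the 3 genes most like each factor, cluster leaders and the 8 matrix genes, except some that are not reported here. Alternatives varied the scaling, the filters, the doublets, the clustering, the definition of the stroma and the thinning. Promoter windows and positions came from RefSeq (GRCm38.p6) and the GRCm38 annotation, the build of the deposited counts.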

Additional observations from a re-analysis of the deposited data

Results flagged for a closer look

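For 3 results a factor went in opposite directions in the stroma and in another lineage, with intervals that did not overlap 1. The difference between the lineages was not tested, since each group was 1 library. *Tcf21* had a ratio of 2.06 for Enl-T1 over Enl-WT in the stroma and of 0.425 (0.370 to 0.486) in the nephron. *Tcf21* in treated over untreated Enl-T1 had 0.711 in the stroma and 2.02 (1.77 to 2.31) in the nephron. The nephron sum includes the podocyte-like class, which held 223, 39 and 30 cells in Enl-WT, untreated Enl-T1 and the treated library and in which *Tcf21* was at 339, 34.8 and 318 CPM. The Enl-T1 cells of that class nearly lack podocyte markers, which summed to 188 CPM against 10057 in Enl-WT and 3015 in the treated library, so the 3 levels are not those of the same cell type. In nephron progenitor-like cells alone *Tcf21* was at 18.6, 26.6 and 51.4 CPM. *Foxd1* in treated over untreated Enl-T1 had 1.71 in the stroma and 0.204 (0.0951 to 0.402) in the ureteric epithelium, where it had 44 UMIs in Enl-T1 and 11 in the treated library, levels below the highest matrix gene.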

How the results depend on the processing

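No paired analysis was possible because each group was 1 library and the labels give no replicate numbers, and no library could be left out. Of the results that answer a comparison, 64 values under an alternative stayed close to the value reported and 20 moved. For Enl-T1 over Enl-WT, the 2 lower factors became 0 with median-of-ratios scaling (12.6% of genes lower), 1 without technical genes in the total (18.9%), 0 with the strict filter (33.3%), 1 with no upper limit on genes (28.5%) and 0 over all kept cells (29.7%). The 2 higher ones became 5 over all kept cells (5.64% of genes higher) and 4 in male cells alone (10.1%). With zones weighted as in Enl-WT, added after the data had been seen, both counts were 1, with no share of all genes beside them. For treated over untreated Enl-T1, the 2 higher factors became 1 without technical genes (9.45%), 0 over all kept cells (5.99%), 1 without cycling clusters (12.3%, also added later) and 0 with zones weighted. The 4 lower ones became 8 over all kept cells (10.7% of genes lower) and 2 with zones weighted. The zone-weighted counts again have no share of all genes beside them. The log2 ratio of *Ebf1* for Enl-T1 over Enl-WT, −0.17, changed sign to 0.13 with median-of-ratios scaling, 0.0090 without technical genes, 0.0043 with the strict filter, 0.081 with stroma from marker UMIs, 0.65 over all kept cells, 0.42 without the Actg2/Car3 and renin/mesangial clusters, 0.16 in male cells and 0.36 with zones weighted. *Hic1* changed sign to 0.097 over all kept cells. For treated over untreated Enl-T1, *Foxd1* changed sign to −0.79 and *Hic1* to −0.97 over all kept cells and *Alx1* to 0.15 with zones weighted. All kept cells include lineages of other shares, and elsewhere the cause was not tested. The factors above background in the Enl-WT nephron became 1 with the strict filter and 1 without clusters led by other lineages. Of *Tbx18* cells with *Foxd1*, the Enl-T1 share became 7.14% after thinning to 1000 UMIs and 34.7% with no thinning, and the treated share 100% with doublets removed. The zone with the highest level in Enl-WT changed for *Zeb2* alone, to the Vegfd/Clca3a1 cluster, at resolutions 0.4 and 1.2, with the 9 factors in the clustering and with doublets removed. *Tcf21* for Enl-T1 over Enl-WT ranged from 0.64 to 1.38 and *Tshz3* for treated over untreated from −2.69 to −1.23 (log2) over all alternatives. Depth limits factors with few UMIs, *Tbx18* and *Alx1* in small zones, and the treated stroma of 272 cells.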

Other observations

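A cluster of nephron cells led by *Sst*, *Akap12* and *Meg3*, which was left unnamed, held 42 cells in Enl-WT, 221 in untreated Enl-T1 and 12 in the treated library. *Foxd1* was at 263, 10.6 and 29.6 CPM there (ratio of Enl-T1 to Enl-WT 0.0404, 0.0233 to 0.0673), *Zeb2* at 286, 153 and 171 CPM (0.536, 0.414 to 0.70) and *Tshz3* at 11.4, 63.2 and 53.2 CPM (5.54, 1.85 to 27.2). Genes of the stroma were also found in this cluster: *Col1a1* and *Smoc2* are among the 10 leading genes, and the 8 matrix genes had a median of 12.2% of their stromal level in Enl-WT, 3.37% in untreated Enl-T1 and 0% in the treated library, where *Foxd1* was at 99.8%, 6.09% and 9.92%. From Enl-WT to untreated Enl-T1 *Foxd1* and *Zeb2* fell as the matrix median did, and *Tshz3* rose. The part of the stromal genes in these values was not tested. *Alx1* had 1, 0 and 0 UMIs in these cells and *Tbx18* 0, 2 and 0. In this cluster 15.1% of 10655 genes were past 1.5-fold higher and 44.5% lower in Enl-T1 relative to Enl-WT. The cluster differs in size between the libraries, so its cells may not be the same kind of cell in each, which was not tested.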
